A study of Mus musculus with 12 samples.

Results

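The genes described here are 36 genes of the p53 pathway and the DNA damage response, listed by symbol and matched through the GENCODE M21 annotation to the Ensembl identifiers of a table of 35666 genes. Of the 36 genes, 35 had a line in the table and all 35 passed the filter on low values described beside the comparison. H2afx, which encodes the histone variant phosphorylated around DNA breaks, was not analysed here. The libraries came from RNA of male gonocytes, the germ cells of the newborn testis, isolated at postnatal day 0 (P0) from mice with an Mvh-Venus transgene, a germ cell reporter. The control animals were Morc1 (+/-), called het below, and the mutant animals were Morc1 (-/-), called KO below, with 3 libraries each, so that all animals carried the reporter and no group was wild type. Samples of a later stage in the series were not analysed here. MORC1 is a germ cell ATPase known to be needed for the silencing of transposable elements (TEs). The labels do not state how the Morc1 allele was made, or how many animals entered a library, so p-values measure the spread between these libraries, which may be technical.

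p53, encoded by Trp53, is a transcription factor that is held low by the ubiquitin ligase MDM2 and accumulates after DNA damage. It then switches on genes that stop the cell cycle, restrain growth or start apoptosis, and Mdm2 itself, which closes a feedback loop. Breaks are sensed by the MRE11-RAD50-NBN complex and by the Ku proteins, and the signal passes through the kinases ATM, ATR and DNA-PKcs to CHK1, CHK2 and p53. Fetal and newborn germ cells are known to be sensitive to DNA damage. Mobile elements that cut DNA to insert are one known source of breaks.

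p53 binds DNA at a sequence of 10 letters with a fixed core, the p53 consensus decamer, and most strongly at a pair of decamers end to end. Its pattern is its own reverse complement, so both strands are covered by a search of one. It was searched in the RefSeq promoter windows of build GRCm38.p6, which hold 250 bases before and 50 bases after each transcript start. Windows were matched by symbol for 28 of the 36 genes, and the genes without a window were H2afx, Nbn, Pmaip1, Prkdc, Rad50, Trp53inp1, Trp63 and Zmat3. The decamer was present for 7 of 15 matched target genes of p53 (46.7%), for 1 of 13 of the other matched genes (7.69%) and for 9.55% of all 27025 symbols. Counted by window, it was in 40% of the windows of the targets and in 8.36% of all windows. A pair of decamers end to end, with at most 1 mismatch outside the core letters, was found for Cdkn1a and for 0.0666% of all symbols. The other genes of the set with a decamer were the targets Mdm2, Ccng1, Gadd45a, Bax, Aen and Sesn1, and Trp53 itself. Sequences are shown for Cdkn1a, for Mdm2 and Ccng1 as abundant targets, and for Aen, which had the lowest p-value among the genes of the set. Capitals mark the decamer or the pair of decamers, and each is given 5′ to 3′ on the strand of the gene. The Cdkn1a pair holds the 1 allowed mismatch, the T that starts its TGACATGTTC part.
Cdkn1a, chr17:29090913-29090962, plus strand: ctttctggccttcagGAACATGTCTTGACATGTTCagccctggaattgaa
Mdm2, chr10:117710920-117710959, minus strand: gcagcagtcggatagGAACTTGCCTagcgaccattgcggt
Ccng1, chr11:40755447-40755486, minus strand: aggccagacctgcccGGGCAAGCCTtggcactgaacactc
Aen, chr7:78895927-78895956, plus strand: agccgaagccGGGCTTGTCCgggcaaggag
The Cdkn1a pair starts 51 bases before a RefSeq transcript start of the gene, and the decamers of Mdm2 and Ccng1 start 186 and 185 bases before such a start. The Aen decamer starts 121 bases before one listed start and 10 bases after another. A match describes the letters in the window and does not show that p53 binds there.

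Depth in the gene table ran from 28363683 to 32816861 reads, and in the TE table from 1974504 to 3703419 reads. Morc1 had 4126 to 7485 normalized counts in het and 1343 to 1794 in KO libraries, and the genotypes did not overlap. The germ cell markers Ddx4 and Dazl were abundant everywhere, with 17605 to 31038 and 48158 to 72571 normalized counts. Others of the 8 germ cell markers were lower, with 482 to 746 for Pou5f1 and 16.4 to 47.5 for Nanos2. The 8 summed to between 116322 and 162639 in het, lowest in replicate 3, and between 120932 and 158321 in KO. Markers of other testis cells were detected too. The 6 Leydig cell markers summed to 26326 in het replicate 3 and to between 814 and 1590 in the other libraries. The 8 Sertoli cell markers summed to between 17918 and 38072 in het and between 12854 and 18415 in KO. Of the 8, 4 (Sox9, Amh, Clu and Dhh) had every KO library below every het library, against 5.57% of all tested genes. Each of the 16 markers searched for endothelial, stromal and blood cells reached 10 normalized counts in at least 1 library, and their sums were 2114 to 2739, 4063 to 4329 and 708 to 976 in het, against 3315 to 3774, 4174 to 5659 and 643 to 1321 in KO. Among the endothelial markers only Tek had genotypes that did not overlap, with 587 to 1043 in het and 1244 to 2396 in KO. The limma test did not call Tek (adjusted p 0.201). The libraries of Pecam1, Cdh5 and Kdr overlapped between genotypes. Pecam1 had the lower mean in KO, at 933 against 1102 in het, and Cdh5 and Kdr had the higher mean in KO. In bulk RNA, fewer cells of a type and less RNA per cell cannot be told apart.

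In the het libraries at P0 many of the p53 pathway and DNA damage response genes were well represented. Bulk RNA does not tell which cells their transcripts came from, and markers of other testis cells were detected too. Levels are compared between genes as normalized counts per kb of annotated exon. On this scale 27 of the 35 genes lay above the median of 17653 tested protein-coding genes (126 per kb), and 8 lay in the top 10% of them. Those 8 were Mdm2, Pmaip1, Ccng1, Bax, Xrcc5, Sesn2, Nbn and Xrcc6, with het means from 2397 per kb for Mdm2 to 1075 per kb for Xrcc6. Pmaip1, which encodes the BH3-only apoptosis protein NOXA, had a het mean of 2218 per kb. Ccng1, which encodes cyclin G1, had a het mean of 2162 per kb. The het libraries of Mdm2, Pmaip1 and Ccng1 overlapped, so their order was not resolved. At the other end were Eda2r, a death receptor gene, at 36.5 per kb and Trp73, a relative of Trp53, at 38.9 per kb, again with overlapping het libraries. Trp53 itself stood at 425 per kb. Bbc3, which encodes the strong apoptosis inducer PUMA, was low at 65.8 per kb.

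**Figure D1:**
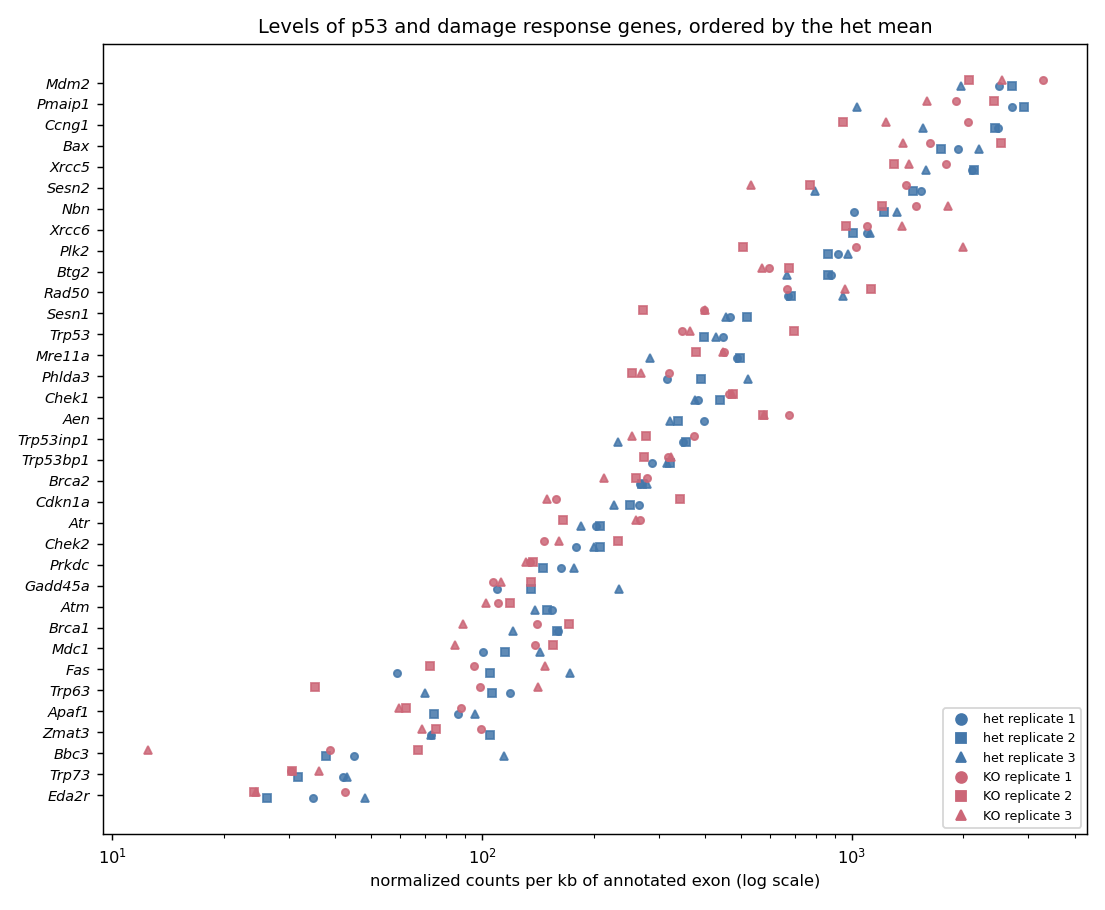
Normalized counts per kb of annotated exon (x axis, log scale) for the 35 measured genes, ordered by the het mean. Each symbol is 1 library, blue for het and red for KO, with the shape giving the replicate number. Mdm2 is at the top at a het mean of 2397 per kb and Eda2r at the bottom at 36.5 per kb.

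KO and het were compared with limma on log2(normalized count + 1), over 26005 genes with a mean of at least 10, with Benjamini-Hochberg adjustment over all of them. Of the 35 genes, 0 passed an adjusted p under 0.05, while 0.473% of all tested genes did (0.431% higher and 0.0423% lower in KO). At an unadjusted limma p under 0.05 the count was 1, Aen, against 6.86% of all tested genes. The edgeR test on recovered reads likewise called 0 of the 35, against 0.496% of all genes, and DESeq2 on recovered reads called 1, again Aen, while calling 1.79% of all genes. Every KO library lay above every het library for 2 of the 35 genes (Aen and Chek1) and below for 3 (Sesn1, Atm and Prkdc). The background shares of these patterns were 7.17% and 5.57% of all tested genes, so these counts were near the background.

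**Figure D2:**
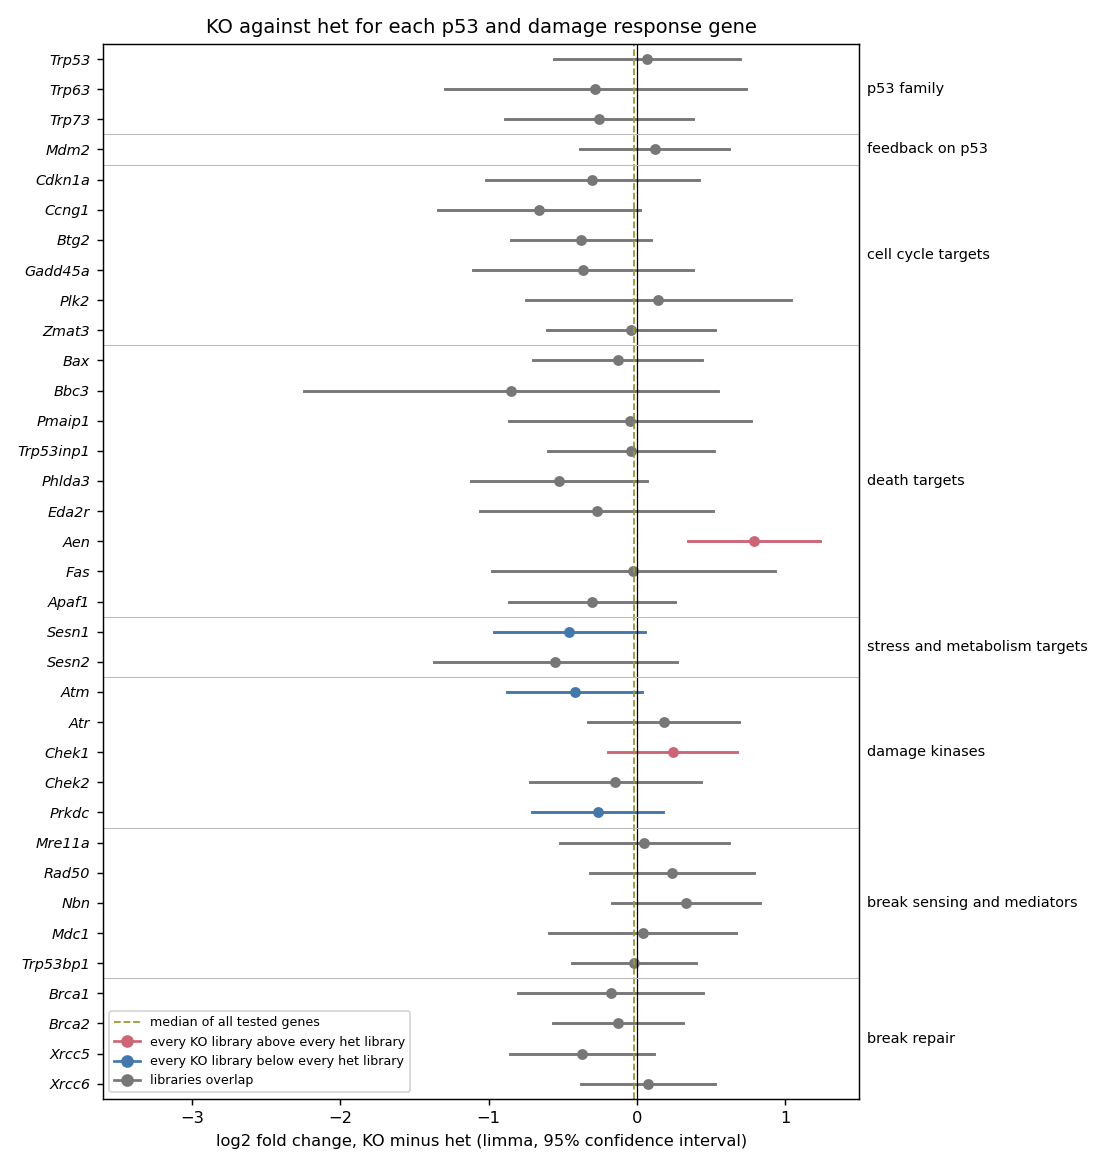
Log2 fold change of KO against het on the log2(normalized count + 1) scale (x axis), with 95% confidence intervals from limma, for the 35 genes grouped by role. Only the interval of Aen, from 0.35 to 1.24, leaves out 0, before any adjustment. Red and blue mark the 5 genes whose libraries did not overlap between genotypes, and the dashed line is the median of all tested genes.

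Values below are normalized counts in the order of the replicate numbers. Trp53 (ENSMUSG00000059552) stood at 1818, 1611 and 1731 in het, against 1405, 2826 and 1472 in KO. KO replicate 2 was above every het library and the other KO libraries were below every het library. KO over het gave a fold of 1.05 with a 95% interval from 0.678 to 1.62, for a limma adjusted p of 0.984 (log2 fold change 0.07). A processed pseudogene, Trp53-ps, is 95.6% identical to 28.2% of the longest Trp53 transcript, but it held only 13.7 to 85.8 normalized counts per library. Trp63, which encodes the p53 relative known for guarding the oocyte pool, had 1000, 892 and 588 normalized counts in het and 828, 297 and 1189 in KO. Its KO libraries spanned both sides of the het libraries (log2 fold change -0.28, interval -1.30 to 0.73). Trp73 had 176 to 238 normalized counts in het and 168 to 200 in KO (log2 fold change -0.26, interval -0.89 to 0.38). Its exons overlap those of Trp73os on the opposite strand.

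Mdm2, the feedback inhibitor of p53, had 12724, 13804 and 10019 normalized counts in het and 16673, 10519 and 12936 in KO, and the genotypes overlapped. Its fold was 1.09, with a 95% interval from 0.768 to 1.54 (limma adjusted p 0.956). Of 13 regulators of p53, 0 passed limma at an adjusted or unadjusted p under 0.05, and 3 had genotypes that did not overlap, a pattern seen in 12.7% of all tested genes. Mdm4, the relative of Mdm2 that also restrains p53, had 3957 to 4195 in het and 4570 to 5726 in KO (log2 fold change 0.31, limma adjusted p 0.847). Cdkn2a, which encodes the MDM2 inhibitor ARF and the CDK inhibitor p16, had 186 to 278 in het and 82.3 to 186 in KO, so that the groups all but touched (log2 fold change -0.76, limma adjusted p 0.776). Hipk2, which encodes a kinase of p53, had 1013 to 1104 in het and 741 to 994 in KO (log2 fold change -0.26, limma adjusted p 0.896).

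Among the cell cycle and growth arrest targets, none of 6 passed, and 5 of 6 had a negative log2 fold change. Cdkn1a, which encodes the CDK inhibitor p21 and carries the pair of p53 decamers shown above, had 943, 894 and 808 normalized counts in het. In KO it had 564, 1214 and 533, with KO replicate 2 above every het library and the other KO libraries below (log2 fold change -0.30, interval -1.02 to 0.42, limma adjusted p 0.924). As for Trp53, KO replicate 2 was the highest of the 6 libraries. Ccng1 had 8745, 8579 and 5455 in het and 7242, 3314 and 4338 in KO (log2 fold change -0.66, interval -1.34 to 0.02, limma adjusted p 0.756). Here KO replicates 2 and 3 were below every het library and KO replicate 1 was not. Plk2, a polo-like kinase gene, had het libraries close together at 3867 to 4394, while its KO libraries ran from 2284 in replicate 2 to 8961 in replicate 3. Btg2, an antiproliferative gene, had 1836 to 2402 in het and 1566 to 1852 in KO (log2 fold change -0.38). Gadd45a, a stress-induced growth arrest gene, had 194 to 414 in het and 189 to 240 in KO. Its exons overlap E230016M11Rik on the opposite strand. Zmat3, an RNA-binding target of p53, had 829 to 1197 in het and 785 to 1138 in KO (log2 fold change -0.04). The exons of Cdkn1a also overlap those of another gene on the opposite strand, AC167363.2.

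Of the 9 death targets, 8 had a negative log2 fold change and none passed. The exception in direction was Aen (ENSMUSG00000030609, chromosome 7 from 78895854 to 78911209, plus strand, GRCm38), which encodes an exonuclease that p53 induces during apoptosis. Aen had 2306, 1968 and 1864 in het, against 3918, 3338 and 3359 in KO. All 3 KO libraries stood well above the highest het library, and each group was tight. The means were 2046 ± 231 in het and 3538 ± 329 in KO (SD, n = 3), a fold of 1.73 with a 95% interval from 1.27 to 2.36. The limma log2 fold change was 0.79 (SE 0.20) with an unadjusted p of 0.00265 and an adjusted p of 0.201 over all genes, and the exact two-sided permutation p was 0.1, the smallest that 3 against 3 allows. DESeq2 gave an adjusted p of 0.0203, so the call depended on the tool. The adjusted p ran from 0.0203 to 0.693 over the alternatives, with log2 fold changes from 0.72 to 0.88.

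Bax, which encodes the pore-forming effector of mitochondrial apoptosis, had 3043, 2740 and 3478 normalized counts in het and 2569, 3994 and 2161 in KO. KO replicate 2 was highest and KO replicate 3 lowest of the 6 libraries (log2 fold change -0.13, interval -0.70 to 0.44). Its exons overlap Gm45808 on the same strand. Bbc3 had the largest negative estimate of the set, -0.85, with a wide interval from -2.24 to 0.55. Its libraries ran from 80.2 to 244 in het and from 26.5 to 143 in KO. Pmaip1 had 7406, 7953 and 2819 in het and 5228, 6624 and 4367 in KO, so that het replicate 3 was the lowest library. Phlda3, which encodes an inhibitor of AKT, had 494 to 817 in het and 396 to 499 in KO (log2 fold change -0.52, limma adjusted p 0.799). Trp53inp1, which encodes a p53-induced nuclear protein, had 1505 to 2308 in het and 1647 to 2424 in KO (log2 fold change -0.04). The death receptor genes were low, with 121 to 357 in het and 149 to 306 in KO for Fas and 154 to 284 in het and 143 to 250 in KO for Eda2r. Their log2 fold changes were -0.02 and -0.27. Apaf1, which encodes the scaffold of the apoptosome, had 667 to 863 in het and 538 to 792 in KO (log2 fold change -0.30).

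The sestrins are p53 targets that restrain mTORC1 signalling under stress. Sesn1 had 1865, 2075 and 1820 normalized counts in het and 1586, 1082 and 1595 in KO. All KO values lay under all het values, with a mean of 1421 ± 294 against 1920 ± 136 (SD, n = 3). The limma test did not call it (log2 fold change -0.45, interval -0.96 to 0.06, adjusted p 0.799). Sesn2 had 5337, 5096 and 2767 in het and 4858, 2671 and 1852 in KO, with het replicate 3 and KO replicate 2 side by side.

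**Figure D3:**
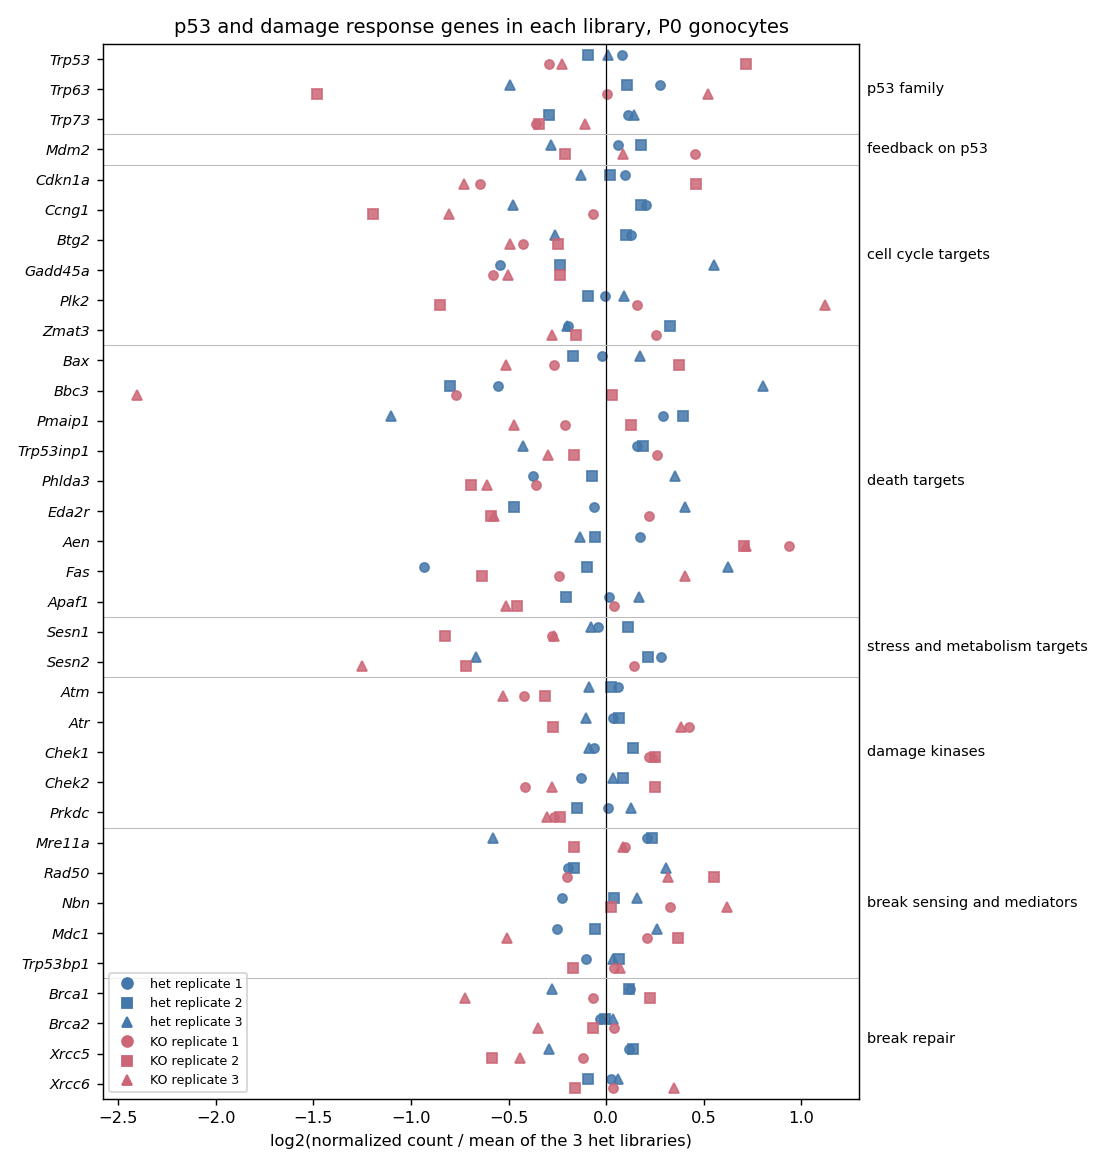
Each of the 35 genes in each of the 6 libraries, as log2 of the normalized count over the mean of the 3 het libraries (x axis), grouped by role. Blue marks het, red marks KO, and the shape gives the replicate number. All red symbols of Aen lie to the right of its blue ones, while for Trp53, Trp63, Cdkn1a and Plk2 the red symbols lie on both sides of the blue ones.

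As a group, 15 of the 18 p53 targets, Mdm2 included, had a negative log2 fold change, with a median of -0.28. Among all tested genes 51.6% were negative and the median was -0.02. Among the 13970 tested genes within the range of het means of the 35 genes, 53.9% were negative. None of the 15 passed the test, and the targets are not independent of each other. Dropping one library at a time, the count was 12 when het replicate 2 was left out, and likewise for KO replicate 2 and for KO replicate 3. It was 13 without het replicate 1, and 13 when het replicate 3 and KO replicate 2 were both left out. It stayed at 15 without het replicate 3, without KO replicate 1, and in every alternative that kept all libraries. The median was -0.19 without KO replicate 3. Of 25 further p53 targets, 15 were negative with a median of -0.16, and 0 passed limma's adjusted or unadjusted p under 0.05, edgeR or DESeq2. Immediate early genes, which cells induce within minutes of handling or stimulation, were also measured. Of these 18 genes 16 were negative, with a median of -0.32, and none passed. Their summed level was 61180 to 65978 in het, against 51569, 62140 and 37332 in KO replicates 1, 2 and 3. KO replicate 3 thus had the lowest sum of immediate early genes. All 8 Sertoli cell markers had negative log2 fold changes as well, with a median of -0.69 and none past the adjusted threshold. The part of these lists in the estimates of the targets was not tested.

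The 5 kinases of the damage response had a median coefficient of variation of 7.73% in het and 7.54% in KO. For tested genes within the range of het means of the set these medians were 17.4% and 23.4%. The KO coefficients of Atr and Chek2 were higher than the median of the kinases, at 24.7% and 25.5%. Atm, the apical kinase for double-strand breaks, had 1596, 1552 and 1438 normalized counts in het and 1142, 1232 and 1059 in KO. Here too the genotypes were apart, with means of 1144 ± 86.3 in KO and 1529 ± 81.9 in het (SD, n = 3). The limma test did not call the difference (log2 fold change -0.42, interval -0.87 to 0.04, adjusted p 0.784). Prkdc, which encodes DNA-PKcs, the kinase of end joining, had 2147, 1923 and 2334 in het and 1773, 1814 and 1731 in KO, again with no overlap (log2 fold change -0.26, interval -0.70 to 0.18). Chek1, the effector kinase below ATR, had 1776, 2043 and 1747 in het and 2160, 2208 and 2196 in KO. Its KO libraries had a coefficient of variation of 1.14% and lay above every het library, by a log2 fold change of 0.24 (interval -0.19 to 0.68, limma adjusted p 0.893). Chek2, the effector kinase below ATM, had 537, 624 and 603 in het and 441, 700 and 485 in KO, with KO replicate 2 highest (log2 fold change -0.14, interval -0.72 to 0.43). Atr had 4375 to 4928 in het and 3898 to 6305 in KO (log2 fold change 0.18). For Atm, Prkdc and Chek1 the exact two-sided permutation p was 0.1, the smallest possible.

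**Figure D4:**
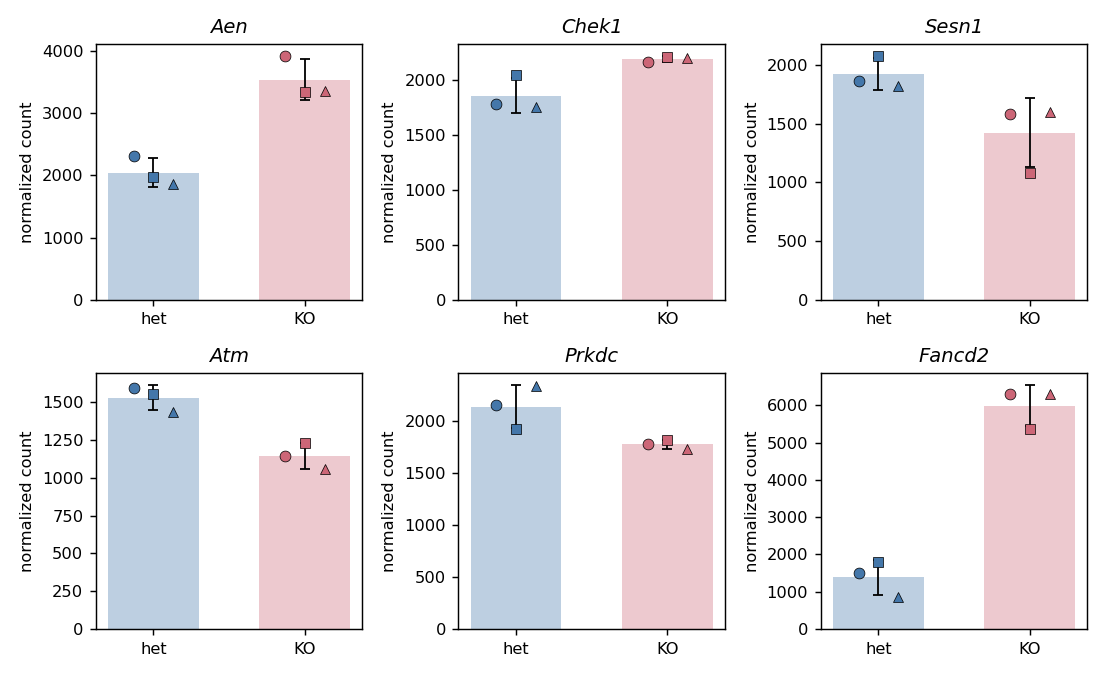
Normalized counts (y axis, from 0) of the 5 genes of the set whose libraries did not overlap between genotypes, and of Fancd2 from the Fanconi anaemia list. Bars are means of 3 libraries, error bars are SDs, and symbols are libraries. KO was above het for Aen, Chek1 and Fancd2 and below it for Sesn1, Atm and Prkdc, and only Fancd2 passed limma's adjusted p under 0.05.

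None of the 5 measured break sensing and mediator genes passed, and their libraries all overlapped between genotypes. In the MRE11 complex, Mre11a, the nuclease subunit, had 1680 to 2949 in het and 2238 to 2679 in KO (log2 fold change 0.05). Rad50, the ATPase subunit, had 3600 to 5095 in het and 3585 to 6040 in KO (log2 fold change 0.24). Nbn, the subunit that recruits ATM, had 2568 to 3346 in het and 3054 to 4601 in KO (log2 fold change 0.33, interval -0.17 to 0.83). All 3 estimates were positive with intervals that cover 0. Trp53bp1, which encodes the mediator 53BP1, was among the steadiest genes of the set. It had 4065 to 4568 in het and 3885 to 4591 in KO, and its interval, from -0.44 to 0.40, corresponds to folds of 0.74 to 1.32. Its exons overlap those of Tubgcp4 on the opposite strand. Mdc1, the mediator that binds phosphorylated H2AX, had 748 to 1066 in het and 625 to 1150 in KO (log2 fold change 0.04).

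None of the 4 repair genes passed either. Brca2, a gene of homologous recombination, had 3635 to 3811 normalized counts in het and 2919 to 3816 in KO, a log2 fold change of -0.13. Brca1, which promotes end resection, had 1036 to 1367 in het and 759 to 1466 in KO, with a log2 fold change of -0.18. Of the Ku genes, which encode the ring that caps broken ends, Xrcc6 had 4513 to 5021 in het and 4310 to 6132 in KO (log2 fold change 0.08). Xrcc5 had 4061 to 5469 in het and 3311 to 4576 in KO (log2 fold change -0.37, interval -0.85 to 0.11). The exons of Mre11a, Atr, Brca2 and Xrcc6 overlap those of other genes on the opposite strand. Over all 14 measured damage response genes, 7 log2 fold changes were negative and 7 positive, with a median of 0.01.

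Libraries of one genotype did not all lie equally close. Het replicate 3 was the het library farthest from the het median for 22 of the 35 genes (62.9%), and it held that place for 59.0% of all tested genes. In KO the farthest library was replicate 2 for 15 genes, replicate 1 for 12 and replicate 3 for 8. The widest KO spreads, with coefficients of variation over 50%, were those of Bbc3 (69.4%), Plk2 (64.2%) and Trp63 (58.2%). The het coefficients were 64.7% for Bbc3, 6.39% for Plk2 and 25.8% for Trp63, so Bbc3 was about as variable in het.

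The rest of the pathway was read from lists of related genes. In the list of 14 Fanconi anaemia genes, which repair DNA crosslinks and protect replication forks, Fancd2 rose in KO, and it was the only one of 132 tested genes on the related lists to pass. A count of 1 in 132 is near the 0.473% of all tested genes that limma called. FANCD2 is the protein that the Fanconi core complex marks with ubiquitin at stalled forks. Fancd2 (ENSMUSG00000034023, chromosome 6 from 113531682 to 113597017, plus strand, GRCm38) had 1506, 1790 and 867 normalized counts in het and 6317, 5367 and 6303 in KO. The lowest KO library was far above the highest het library, with means of 1388 ± 473 in het and 5996 ± 545 in KO (SD, n = 3). The fold was 4.50, with a 95% interval from 2.94 to 6.88 (limma log2 fold change 2.17, SE 0.28, adjusted p 0.0101). edgeR and DESeq2 on recovered reads also called it, at adjusted p-values of 0.0127 and 4.59e-10. The call was lost in limma without KO replicate 1 (adjusted p 0.0970), without KO replicate 3 (0.0861) and without trend (0.0764), and in edgeR with the replicate block (0.0534). The Fancd2 log2 fold change stayed between 1.86 and 2.39 in all alternatives run. Its exons overlap Fancd2os on the opposite strand, which held 9.54 to 71.5 normalized counts per library. The other 13 Fanconi genes did not pass, and the partner of FANCD2, Fanci, had a log2 fold change of 0.03.

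Among the other lists, 0 of 16 apoptosis core genes, 0 of 13 genes of the ATR and replication checkpoint and 0 of 14 homologous recombination genes passed limma, also at an unadjusted p under 0.05. Of 11 end joining genes 0 passed, and 1, Rif1, had an unadjusted limma p under 0.05. RIF1 works with 53BP1 to protect ends from resection. Rif1 had 2605, 2413 and 4621 in het and 4473, 5946 and 4864 in KO, so that het replicate 3 lay among the KO libraries (log2 fold change 0.72, limma adjusted p 0.598). Of 8 genes of ubiquitin signalling at breaks 0 passed, and Abraxas1, a scaffold of the BRCA1-A complex, had an unadjusted limma p under 0.05. It had 1355, 1253 and 1208 in het and 1732, 1629 and 2550 in KO, with no overlap (log2 fold change 0.60, limma adjusted p 0.631). In the immediate early list the only such gene was Nr4a1, an orphan nuclear receptor gene, with a log2 fold change of -0.72 and an adjusted p of 0.636 in limma. edgeR called 0 genes in each of these lists and among the p53 regulators, and so did DESeq2.

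TE copies near the 35 measured genes and H2afx were read from the same libraries as the genes. The TE table listed 434 copies within 10 kb of these genes, and 104 of them, near 27 genes, had a mean of at least 10 and were tested. Of the 104, 41 were intronic, 18 overlapped an exon and 45 lay outside the gene. Values of copies within a gene may include reads of that gene's own transcripts, which was not tested. Of these, 0 were called by limma at an adjusted p under 0.05 and 0 by edgeR on recovered reads, and 5 had an unadjusted limma p under 0.05. Those 5 lay near Atm, Bax, Chek1 and Sesn1, where KO had the lower mean, and near Trp53inp1, where KO had the higher mean. Among all 49781 tested copies limma called 16.3% (15.6% higher and 0.735% lower) and edgeR 13.7%, and 25.6% had an unadjusted p under 0.05. Among the 30860 copies within 10 kb of any tested protein-coding gene 6.14% were called. The copies near the 36 genes differed in length from the rest: 2 of 104 (1.92%) were over 5 kb, against 6.92% of copies near protein-coding genes and 16.4% of all copies. The part of length in the count of 0 was not tested. Their median log2 fold change was -0.17, against -0.20 near protein-coding genes and 0.03 for all copies. The sign of this median depended on the scaling of the TE table: with the size factors of the gene table it was 0.15, against 0.38 for all copies, and with quantile normalization -0.59, against -0.41. Under each of these scalings the copies near the 36 genes had a lower median than all copies, also with edgeR (-0.36 against -0.12). Copies near protein-coding genes in general were not compared under the alternative scalings, so a lower median is not shown to be particular to the 36 genes.

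**Figure D5:**
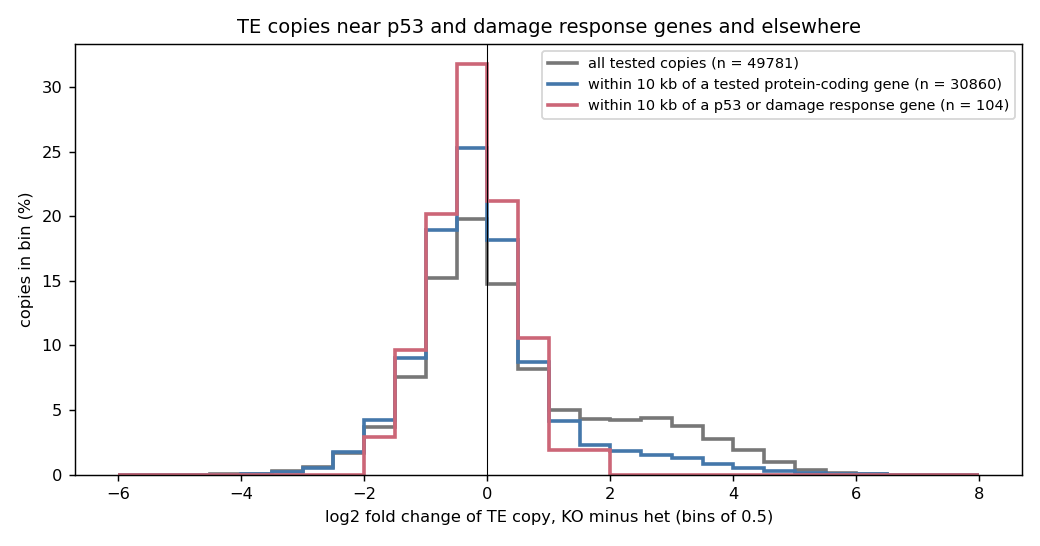
Share of TE copies (y axis, percent) by log2 fold change of KO against het (x axis, bins of 0.5), for all 49781 tested copies, for the 30860 within 10 kb of a tested protein-coding gene and for the 104 within 10 kb of a p53 or damage response gene. All 3 outlines peak near 0. The broad right shoulder of all copies is much lower near protein-coding genes and absent from the outline of the 104. In the bin from 2.5 to 3 lay 4.41% of all copies, 1.54% of those near protein-coding genes and 0% of the 104.

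The 7 tested copies near Aen, 3 of them overlapping its exons, had log2 fold changes from -0.65 to 0.63 and overlapping genotypes. A copy of 497 bp in an intron of Sesn1 (chr10:41828128-41828624), opposite to its strand, had 45.4, 39.3 and 91.1 normalized counts in het and 22.9, 24.8 and 21.4 in KO. It lay below het in every KO library, as Sesn1 itself did, without passing the limma test (log2 fold change -1.21, adjusted p 0.120). Other copies did not follow their gene. A copy of 418 bp near Bax lay below het in every KO library (log2 fold change -1.26, limma adjusted p 0.118), while the libraries of Bax overlapped. The smallest limma adjusted p of the 104, 0.114, was that of a copy of 576 bp near Trp53inp1 (log2 fold change 1.75, overlapping genotypes). Beside it, a copy of 7402 bp lay above het in every KO library (log2 fold change 0.74, limma adjusted p 0.317), while Trp53inp1 itself overlapped. At the other end of the 7402 bp copy lay a copy of 577 bp (log2 fold change 1.48, limma adjusted p 0.266, overlapping genotypes). These 3 copies lie end to end on the same strand, and whether they are parts of a single element was not tested. Of the 4 tested copies within 10 kb of Fancd2, 2 were called higher by limma, both intronic, with centres 24062 and 25165 bases after the start of the gene. The copy of 493 bp on the strand of Fancd2 (chr6:113556601-113557093) had 13.7, 3.37 and 23.0 normalized counts in het and 50.6, 68.9 and 74.4 in KO (log2 fold change 2.49, adjusted p 0.0196). The copy of 197 bp on the opposite strand (chr6:113555646-113555842) had 2.24 to 6.71 in het and 17.2 to 42.6 in KO (log2 fold change 2.27, adjusted p 0.0485). Both log2 fold changes stood near the 2.17 of the gene itself. edgeR on recovered reads called neither, at adjusted p-values of 0.0521 and 0.0699. The longer copy lost its call without het replicate 2 (0.0529) and without KO replicate 1 (0.0629), 2 (0.0775) or 3 (0.0859), and the shorter one in each case of leaving out 1 library except het replicate 3, with the replicate block (0.0952), with a pseudocount of 0.1 (0.0849) and with quantile normalization (0.0954). Among 11240 tested protein-coding genes with a tested copy within 10 kb, 11.1% had at least 1 called copy. How reads that match several copies were counted is not given in the sources used here, so values of single copies are uncertain.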

How the data were processed

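The values of both deposited tables are a signal, called normalized counts here: reads per gene or TE copy that the authors scaled by a size factor for each library. The gene table's own name credits DESeq2. The submitters' processing notes name bcl2fastq 2.20, cutadapt 1.18, HISAT2 2.1.0, featureCounts 1.5.2, DESeq2 1.26.0 and the build mm10 (GRCm38). RNA was amplified with a low-input cDNA kit, per the labels' protocols. Strand handling is not given in the sources used here, so genes that overlap on opposite strands cannot be told apart. In every library 100% of values were whole multiples of a step (within 0.01 read), and dividing by it gave the reads. In KO replicate 1 of the gene table the step was 0.989, close to 1. edgeR called 129 genes and 6834 TE copies on these reads. Of 35666 gene identifiers, 35560 matched GENCODE M21. Among the related genes, Atrip was not analysed here, and Rfwd2, Claspn, Shld3, Fam175a and Bre matched no symbol. Rfwd2, Fam175a and Bre are older symbols of Cop1, Abraxas1 and Babam2, which were listed too and were tested. Claspn is probably a misspelling of Clspn, which was therefore not in the list.

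Filtering at a mean of 10 or more preceded each fit, which used limma 3.58.1 (trend, R 4.3.3, two-sided) on log2(value + 1), which understates changes of low genes, with no covariates. edgeR 4.0.16 and DESeq2 1.42.0 were run on recovered reads as alternatives. edgeR on TE reads was added after seeing the data. The limma fit was tested on simulated data. bedtools 2.31.1 placed copies and blastn 2.17.0 compared transcripts. The genes and lists were chosen with earlier results of these data known. All 36 genes are accounted for. Values per library are given where p was under 0.05, where libraries did not overlap, and for Trp53, Mdm2, Cdkn1a, Bax, Atm and Chek2; from each related list up to 2 genes with the smallest p under 0.05 are named. Mdm4, Cdkn2a, Hipk2, Fanci, Trp53-ps and Fancd2os were named after their values were seen. Every pair of replicates differed by more than sampling of reads gives. Chi-square per gene averaged 10.0 for het replicates 1 and 2, and 62.6 to 94.3 for the other pairs within a genotype. Het replicates 1 and 2 were thus much closer to each other than any other pair, and the reason was not tested.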

Additional observations from a re-analysis of the deposited data

How the results depend on the processing

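Of the 630 comparisons of the 35 genes with alternatives, 595 kept direction and side of the threshold, 1 (Aen with DESeq2) passed it, and 34 changed sign, none of them called. All sign changes came from leaving out libraries. Leaving out 1 library, or het replicate 3 with KO replicate 2, gave log2 fold changes of -0.26 to 0.25 for Trp53, -0.70 to 0.30 for Trp63, -0.050 to 0.28 for Mdm2, -0.34 to 0.69 for Plk2, -0.20 to 0.14 for Zmat3, -0.38 to 0.060 for Bax, -0.68 to 0.22 for Pmaip1 and -0.24 to 0.074 for Trp53inp1. The ranges were -0.54 to 0.090 for Eda2r, -0.42 to 0.59 for Fas, -0.22 to 0.19 for Mre11a, -0.13 to 0.31 for Mdc1, -0.069 to 0.076 for Trp53bp1, -0.52 to 0.091 for Brca1 and -0.062 to 0.22 for Xrcc6. The other 20 genes kept their sign in every alternative run.

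Of the 35 genes, 0 were called higher in each alternative except DESeq2 (1) and 0 lower in each. Over all genes limma called 112 higher and 11 lower. The counts were 70 and 5 with a pseudocount of 0.1, 177 higher with a pseudocount of 10, 3 lower without trend, and 400 and 65 with DESeq2. Leaving out libraries gave 15 to 107 higher and 1 to 10 lower. The replicate block gave 64 and 5 in limma and 38 and 0 in edgeR, and it ended the call of Fancd2 in edgeR only. Fanconi genes called higher numbered 1, but 0 without trend, 0 with the replicate block in edgeR and 0 to 1 when libraries were left out. TE copies called near the 36 genes numbered 0, but 2 with quantile normalization, 2 of 190 within 50 kb and 0 to 2 when libraries were left out. The cause of these changes was not tested. No alternative scaling moved the median log2 fold change of all genes outside -0.03 to 0.01.

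The labels do not say that same-numbered libraries pair animals, so the numbers were not taken to pair libraries. Deviations from the group means in same-numbered libraries correlated at 0.14, -0.16 and -0.04 across genes. Het replicates 1 and 2 correlated best with KO replicate 1 (0.14 and 0.16) and het replicate 3 with KO replicate 2 (0.21). Deviations from a mean of 3 libraries are tied to each other, so these correlations cannot show whether libraries are paired. The narrowest 95% interval among the 35 genes, that of Trp53bp1, spans folds from 0.739 to 1.32 before any adjustment, and Aen was not called by limma at a fold of 1.73. With 3 libraries per genotype, differences of that size could go uncalled.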
